A study of Mus musculus with 57 samples.

Results

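Foxp3, Folr4, Ikzf2, Ikzf4, Nrp1 and Lrrc32 were followed in 56 single mouse T helper 2 (Th2) cells, the CD4+ T cells that make interleukin-4. These 6 genes, of the 10565 in the deposited table, were chosen by name because they are associated with regulatory T (Treg) cells, and the table holds all 6, written there as foxp3, folr4, ikzf2, ikzf4, nrp1 and lrrc32. Folr4 is an older symbol of Izumo1r. All cells came from the spleens of wild type C57BL/6 mice aged 8 weeks. Purified CD4+ T cells were activated through CD3 and CD28 with interleukin-4 and an antibody to interferon gamma, were given interleukin-2 from day 2, and after 5 days of culture were stimulated again by antibodies to CD3 and CD28. The labels name no step that removed Treg cells. The cells form 1 group with no control, and the labels name no separate animals or cultures, so the 56 cells are 1 sample and no test between cells was made. Titles number the cells in 5 sets, T1 with 8 cells and T2 to T5 with 12 each; the labels do not say what a set stands for.

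Treg cells restrain immune responses, and Foxp3 is the transcription factor that defines them. Ikzf2 (Helios) and Ikzf4 (Eos) are zinc finger factors of the Ikaros family that act beside Foxp3. Folr4, also called folate receptor 4, is a surface protein abundant on Treg cells that other activated CD4+ T cells can also carry. Nrp1 (neuropilin-1) is a receptor for semaphorins and vascular endothelial growth factor and marks mouse Treg cells from the thymus, and Lrrc32 (GARP) holds latent TGF-beta on the surface of activated Treg cells.

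Levels are in TPM, the share of a cell's transcripts that a gene takes after scaling for its length, rounded to whole numbers by the authors, and a gene was counted as listed in a cell at 1 TPM or more. TPM keeps no sequencing depth, so the counting error of a level cannot be estimated here, and a 0 can be a transcript lost in capture. The median cell listed 4743.5 genes, from 2679 to 8396. Of 8 Th2 markers, Gata3, the master regulator of the fate, was in 56 cells at a mean of 904 TPM (SD over cells 514), Il4 in 54 and the chemokine receptor Ccr8 in 52. The others were in fewer: Maf in 38 cells, Il13 in 31, Pparg in 29, Il1rl1 in 24 and Il5 in 14. The 6 general T cell markers were in 37 cells (Cd4) to 56 cells (Cd3d, Cd3e and Cd2). Cell T3_5 stood apart with 8396 genes, and T1_6 was next with 6983.

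The promoter windows of Foxp3, the defining Treg gene, and of Folr4, the member found in most cells, are shown because the results turn on these genes. They are RefSeq sequences of GRCm38.p6, 250 bases before to 50 bases after a start, 5′ to 3′ on the gene's strand. The deposited data were made on mm9 and carry no coordinates. Capitals mark matches to GATAA (the core bound by GATA factors), TATAAA (the TATA box) and TTCNNNGAA (a STAT motif), searched on both strands. Foxp3 has 2 windows, at chrX:7579426-7579725 and chrX:7580233-7580532, both on the plus strand, and Folr4 has 1, at chr9:14903718-14904017 on the minus strand.
Foxp3 window 1: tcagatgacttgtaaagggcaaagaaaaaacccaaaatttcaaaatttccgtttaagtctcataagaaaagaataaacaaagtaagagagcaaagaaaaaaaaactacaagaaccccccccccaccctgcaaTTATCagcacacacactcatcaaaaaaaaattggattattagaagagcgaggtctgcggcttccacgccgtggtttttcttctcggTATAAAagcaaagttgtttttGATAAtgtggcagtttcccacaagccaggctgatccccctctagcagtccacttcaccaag
Foxp3 window 2: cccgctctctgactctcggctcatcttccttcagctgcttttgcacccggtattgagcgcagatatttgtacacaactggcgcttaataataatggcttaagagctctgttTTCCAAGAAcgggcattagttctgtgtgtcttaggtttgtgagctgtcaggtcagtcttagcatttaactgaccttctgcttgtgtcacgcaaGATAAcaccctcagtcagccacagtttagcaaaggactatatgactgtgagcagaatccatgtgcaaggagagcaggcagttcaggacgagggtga
Folr4 (Izumo1r): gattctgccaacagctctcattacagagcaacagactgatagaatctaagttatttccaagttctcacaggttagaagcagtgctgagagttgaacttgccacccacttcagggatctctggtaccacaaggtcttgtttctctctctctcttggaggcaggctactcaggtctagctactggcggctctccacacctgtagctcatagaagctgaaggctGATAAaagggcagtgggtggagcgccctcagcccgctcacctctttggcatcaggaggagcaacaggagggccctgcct
The first Foxp3 window holds GATAA on each strand and TATAAA, the second holds GATAA and TTCNNNGAA, and the Folr4 window holds GATAA once; no matches overlap. Of 32851 windows of the same length, 25.4% hold GATAA, 13.6% TATAAA and 8.30% TTCNNNGAA. A match describes letters only and is no binding site.

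The 6 genes fell into a widespread member, a member in an intermediate number of cells and 4 rare ones. Folr4 was listed in 50 of 56 cells (89.3%, exact Clopper-Pearson 95% interval 78.1 to 96.0) and Nrp1 in 33 (58.9%, 45.0 to 71.9). Ikzf4 was in 11 (19.6%, 10.2 to 32.4), Foxp3 in 9 (16.1%, 7.62 to 28.3), Ikzf2 in 5 (8.93%, 2.96 to 19.6) and Lrrc32 in 4 (7.14%, 1.98 to 17.3). Intervals cover counting error only. Mean levels ran in the same order, 457 TPM for Folr4 (SD 489), 44.7 for Nrp1 (SD 90.6), 10.1 for Ikzf4 (SD 33.4), 2.61 for Foxp3 (SD 7.91), 1.11 for Ikzf2 (SD 4.60) and 0.893 for Lrrc32 (SD 4.93). Folr4 exceeded Nrp1 in 49 of 56 cells and Nrp1 exceeded Ikzf4 in 29, with 21 equal. Below that the order is not separated from the spread over cells: Ikzf4 was above Foxp3 in 9 cells and below it in 8, Foxp3 was above Ikzf2 in 9 and below it in 4, and Ikzf2 was above Lrrc32 in 5 and below it in 4. Most cells held few members: 4 held 0, 13 held 1, 21 held 2, 16 held 3, 1 held 4 and 1 held 5.

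**Figure D1:**
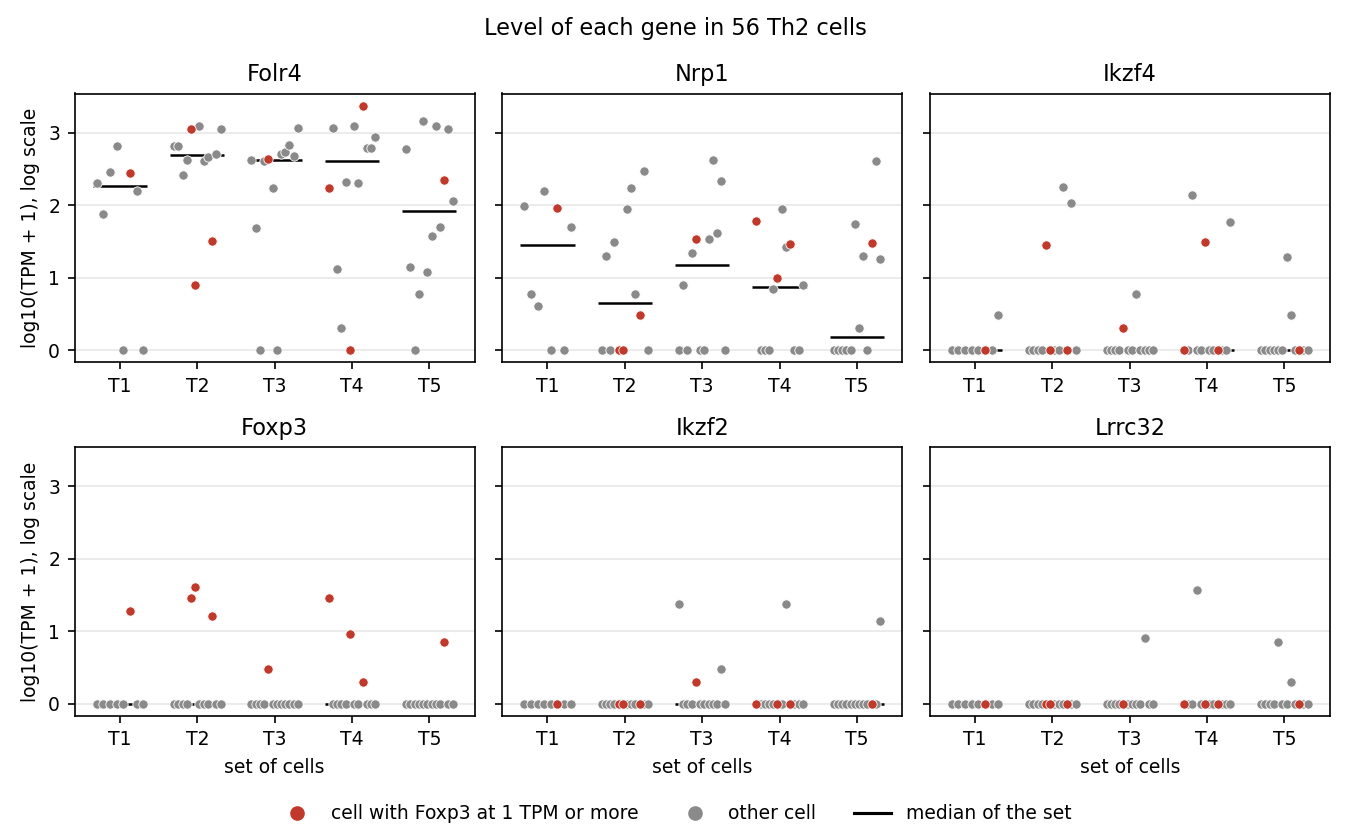
Level of each of the 6 genes in every cell, as log10(TPM + 1) on the vertical axis, by set T1 to T5 on the horizontal axis; each point is 1 cell, red points are the 9 cells that list Foxp3, and lines are set medians. Folr4 lies above 0 in 50 cells and in all sets, while Foxp3, Ikzf2, Ikzf4 and Lrrc32 lie at 0 in most cells of each set.

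Foxp3 was listed at 40 TPM in T2_6, 28 in T2_5, 28 in T4_1, 18 in T1_6, 15 in T2_10, 8 in T4_6, 6 in T5_10, 2 in T3_5 and 1 in T4_9, and at 0 in the other 47 cells. It appeared in every set, in 3 cells each of T2 and T4 and in 1 cell each of T1, T3 and T5. The highest cell held 27.4% of the Foxp3 total. At 5 TPM or more Foxp3 was in 7 cells and at 10 TPM or more in 5. Genes next to it in order of mean TPM were listed in a median of 7 cells, so 9 cells is near what its low mean gives.

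These values cannot be ascribed to Foxp3 alone. In the GENCODE M21 annotation (GRCm38), the last exon of Foxp3, on the plus strand of chromosome X, in its longest forms overlaps 4 exons of Ccdc22 on the other strand, by 590 bases between 7593809 and 7595055, which is 12.9% of the 4577 annotated exon bases of Foxp3. Foxp3 exons also overlap 2 noncoding genes that are not analysed here, Flicr on the same strand (853 bases, 18.6%) and Gm36995 on the other (373 bases, 8.15%). Ccdc22 encodes a subunit of a complex that sorts endosomal cargo. The sources used here do not give whether reads were counted by strand. Without strand, reads inside the shared bases cannot be assigned to 1 of the 2 genes, while reads outside them can be by position. TPM does not show where in Foxp3 the reads lay. Ccdc22 was picked out after all genes had been ranked against Foxp3, where it came first of 7871 genes with a Spearman rho of 0.92 over the 56 cells; the next gene, Trdmt1, had 0.55.

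Cell by cell, Ccdc22 followed Foxp3. It was at 207 TPM in T2_6, 156 in T2_5, 57 in T4_1, 42 in T1_6, 72 in T2_10, 35 in T4_6, 17 in T5_10, 6 in T3_5 and 1 in T4_9. All 9 cells with Foxp3 thus listed Ccdc22, against 1.77 if the 2 genes were independent, and Ccdc22 was as high as Foxp3 in T4_9 and higher in the other 8. Its TPM was 1 to 5.57 times that of Foxp3, with a median of 3. Of the 47 cells without Foxp3, 2 listed Ccdc22, T3_10 and T3_11, each at 1 TPM, and 45 listed neither gene. No cell listed Foxp3 without Ccdc22. Ppp1r3f, whose exons overlap the other end of the Foxp3 locus by 266 bases on the opposite strand, was in 2 cells and in 0 of the 9 with Foxp3.

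**Figure D2:**
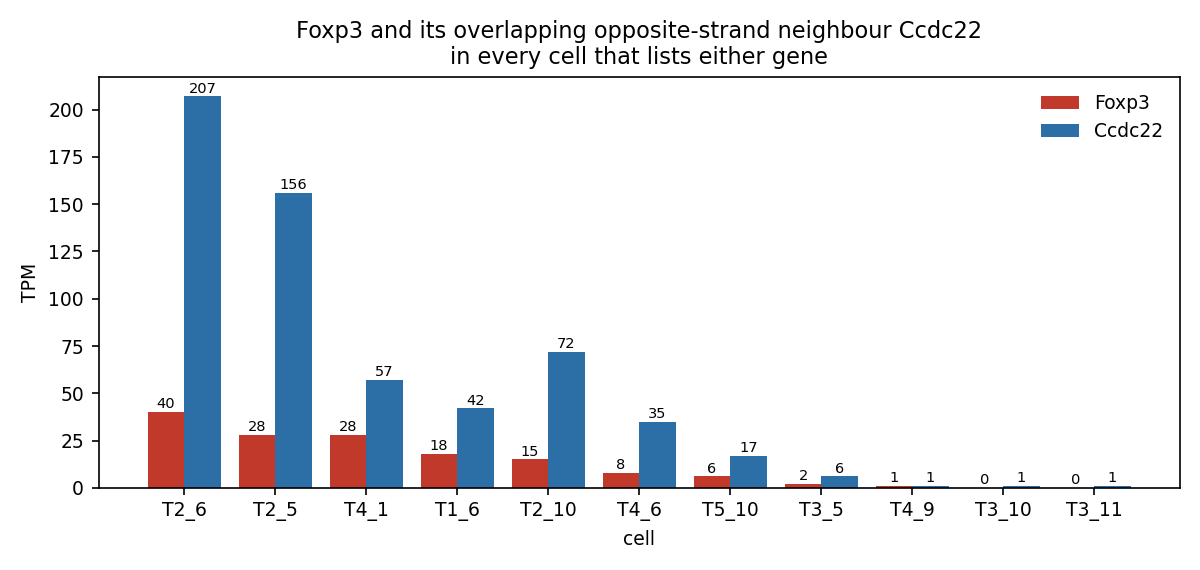
TPM of Foxp3 (red) and Ccdc22 (blue) in the 11 cells that list either gene, with the value above each bar; the vertical axis starts at 0. Foxp3 is highest in T2_6 at 40 TPM, where Ccdc22 is also highest at 207, and T3_10 and T3_11 hold Ccdc22 only, at 1 TPM.

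Most overlapping genes of this table were less alike than Foxp3 and Ccdc22. Among 476 pairs of protein-coding genes on opposite strands whose exons overlap by 100 bases or more, with both genes in at least 5 cells, the median rho was 0.22 and 149 pairs (31.3%) had a rho of 0.5 or more. Foxp3 with Ccdc22 was at place 20 of the 476. Among 3184 adjacent pairs on opposite strands without overlap, under the same filter on cells, the median rho was 0.05. Of these, 11 pairs (0.35%) had a rho of 0.5 or more. The source of this difference was not tested. None of the other 5 members overlaps the exons of another gene of the table. In what follows, Foxp3-listed cells are therefore cells with reads assigned to Foxp3, and 9 of the 11 cells with Ccdc22 are the same cells.

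The other Treg transcription factors were each in a minority of the Foxp3-listed cells. Ikzf4 was in 3 of 9 Foxp3-listed cells (33.3%, 7.49 to 70.1) and in 8 of 47 others (17.0%, 7.65 to 30.8), against 1.77 of 9 if independent. The 3 cells held 30 TPM (T4_6), 27 TPM (T2_5) and 1 TPM (T3_5), while the highest values, 179 TPM in T2_9 and 135 TPM in T4_3, lay in cells without Foxp3. Ikzf2 was in 1 of 9, T3_5 at 1 TPM, and in 4 of 47 others (8.51%, 2.37 to 20.4), where T3_1 and T4_8 held 23 TPM each, T5_12 13 and T3_11 2. T3_5 is the cell with the most genes, and without it Ikzf2 was in 0 of the 8 remaining Foxp3-listed cells. Across the 56 cells the rho with Foxp3 was 0.13 for Ikzf4 and 0.00 for Ikzf2, and values this near 0 in sparse data are no finding.

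The surface members gave the following counts. Lrrc32 was in 0 of 9 Foxp3-listed cells (exact interval 0 to 33.6%) and in 4 of 47 others, at 36 TPM in T4_4, 7 in T3_10, 6 in T5_5 and 1 in T5_8. T4_4 held 72% of its total. Nrp1 was in 7 of 9 Foxp3-listed cells (77.8%, 40.0 to 97.2) and in 26 of 47 others (55.3%, 40.1 to 69.8). Its level ran from 0 to 89 TPM with a median of 28 in the first group and from 0 to 412 TPM with a median of 5 in the second, so the ranges overlap and the mean was lower in the first (27.8 against 47.9 TPM). Folr4 was in 8 of 9 (88.9%, 51.8 to 99.7) and in 42 of 47 (89.4%, 76.9 to 96.5), with medians of 218 and 405 TPM. The rho with Foxp3 was 0.10 for Nrp1, -0.08 for Folr4 and -0.12 for Lrrc32. Within sets, that of Nrp1 was 0.25, -0.46, 0.18, 0.55 and 0.33 in T1 to T5.

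**Figure D3:**
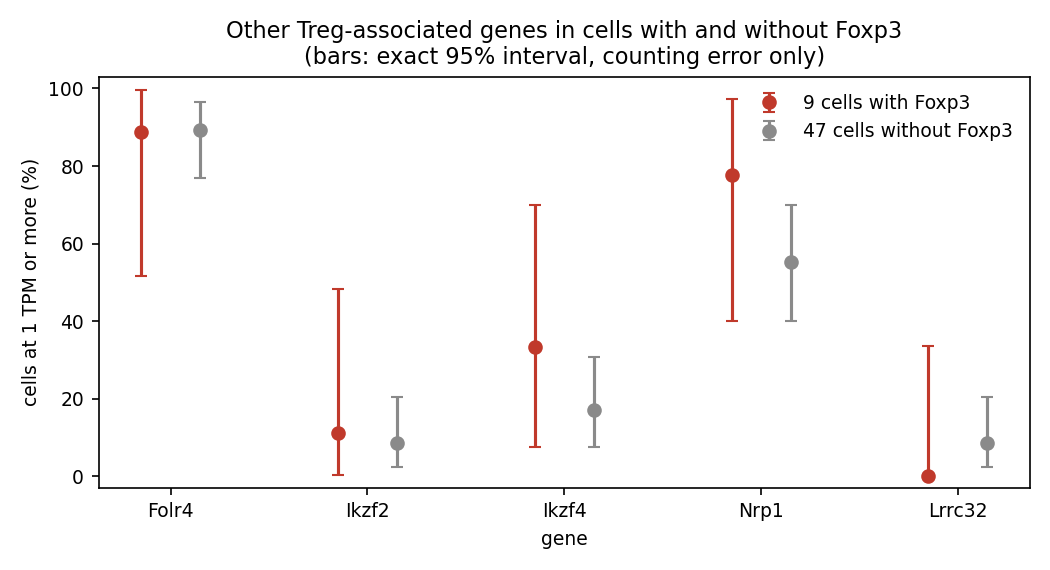
Percent of cells at 1 TPM or more for the 5 other genes, in the 9 cells with Foxp3 (red) and the 47 without (grey); bars are exact 95% intervals, which cover counting error only. The intervals of the groups overlap for each gene, and the largest gap is that of Nrp1, 77.8% against 55.3%.

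The number of genes listed per cell moved with Foxp3. Foxp3-listed cells listed a median of 5195 genes (4013 to 8396) and the others 4696 (2679 to 6212), and 7 of the 9 were among the 28 cells at or above the overall median. In those 28 cells Nrp1 was in 6 of 7 Foxp3-listed cells and 15 of 21 others. The rho with genes listed was 0.30 for Foxp3, 0.28 for Nrp1, 0.23 for Ikzf2, 0.14 for Lrrc32, 0.09 for Folr4 and 0.05 for Ikzf4. With genes listed held constant, the partial rho with Foxp3 was 0.02 for Nrp1, 0.12 for Ikzf4, -0.07 for Ikzf2, -0.11 for Folr4 and -0.17 for Lrrc32.

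Folr4 was the member that most cells shared, and at a high level. Its TPM ran from 0 to 2351 (T4_9) with a median of 343, and the middle of the distribution, from the 25th to the 75th percentile, spanned 44.5 to 652 TPM. In 10 cells it was at 1000 TPM or more, in 29 at 100 TPM or more but under 1000, in 11 at 1 TPM or more but under 100, and in 6 it was listed at 0. Its mean was at place 355 of 10565 genes. Genes next to it in order of mean were listed in a median of 55 cells, so Folr4 was missing from more cells than genes of like mean. The 6 cells at 0 were T1_5, T1_8, T3_3, T3_7, T4_6 and T5_3. These cells held Gata3 at 800 to 1918 TPM. They held Cd3d, which encodes a CD3 chain of the T cell receptor complex, at 1103 to 3028 TPM. One of them, T4_6, listed Foxp3.

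Sets shared the wide spread of Folr4. From T1 to T5 it was in 6, 12, 10, 11 and 11 cells, and the set medians were 181, 485.5, 420.5, 407 and 81 TPM. Means ran from 206.5 TPM in T1 (SD 212) to 620 TPM in T4 (SD 702). The highest cell of a set held 653 TPM in T1 and 2351 in T4, and the lowest cell held 7 TPM in T2 and 0 in each other set. Variation was measured as the squared coefficient of variation (CV2) on the log2 scale, less the running median over the 50 genes on either side in order of mean, and an excess above 1 or below -1 was called. Of 7871 genes in 10 or more cells, 13.1% were above 1 and 15.1% below -1. The excess was 0.67 for Folr4, 0.30 for Ikzf4 and 0.03 for Nrp1, and 0 of these 3 genes were called; the other 3 members were in too few cells.

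**Figure D4:**
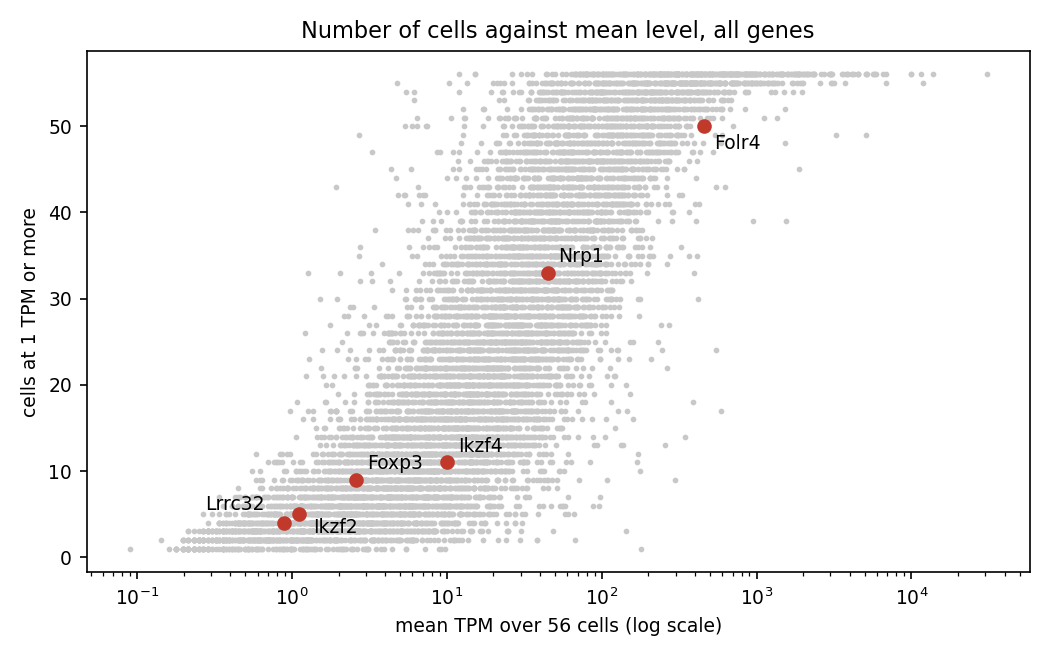
Number of cells at 1 TPM or more against mean TPM over 56 cells (log scale) for all genes (grey) and the 6 genes (red). Folr4, in 50 cells at 457 TPM, lies low among genes of its mean, and Foxp3, in 9 cells at 2.61 TPM, lies within the cloud of low genes.

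The genes most like Folr4 over the cells, by Spearman rho among the other 7870 genes in 10 or more cells, were Tgs1 (0.48), which modifies RNA caps, the survival gene Bcl2l1 (0.48), Pigh (0.47), an enzyme subunit of GPI anchor synthesis, Tm2d2 (0.47) and Kif9 (0.46). For Nrp1 they were 4930420K17Rik (0.52), the amino acid transaminase Bcat1 (0.51), the chaperone Hsph1 (0.50), Gramd1b (0.50) and the signalling inhibitor Spry1 (0.50). Folr4 and Nrp1 had a rho of 0.25 with each other, and 0.52, 0.08, 0.55, 0.22 and 0.26 within T1 to T5. These are the highest of 7870 values for each gene, over cells that share 1 protocol and differ in genes listed, and are given as a description.

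The relatives and partners of the members were spread unevenly. Of the Ikaros family, Ikzf1 (Ikaros) was in 50 cells at a mean of 51.4 TPM, Ikzf3 (Aiolos) in 33 at 28.4 and Ikzf5 in 22 at 11.7, each in more cells than Ikzf4 or Ikzf2. Nrp2, the paralog of Nrp1, was in 4 cells, its plexin partner Plxna1 in 8, and the ligands Vegfa, Sema3a and Sema4a in 14, 3 and 2. Of the genes that store and activate TGF-beta, the integrin chain Itgav was in 51 cells (37.7 TPM) and the protease Furin in 54 (54.3 TPM), while Tgfb1 was in 19 (6.36 TPM) and Lrrc33, a relative of Lrrc32, in 8. Folr1, Folr2, Plxna2, Plxna3, Plxna4 and Itgb8 were not analysed here.

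Other surface and effector genes associated with Treg cells ranged from a few cells to all. Of 17 in the table, 3 were in all 56 cells and 12 in 28 or more. The interleukin-2 receptor chain Il2ra was in 56 cells at 660 TPM, OX40 (Tnfrsf4) in 56 at 9962, 4-1BB (Tnfrsf9) in 56 at 1900, GITR (Tnfrsf18) in 55 at 2554, and the inhibitory receptor Tigit in 52 at 836. Il2ra had a median of 661 TPM in Foxp3-listed cells (76 to 1027) and 582 TPM in the others (31 to 2871), and Tnfrsf18 of 2137 and 2121 TPM. Activated T cells also express these genes. At the other end, Entpd1 and Itgae were in 7 cells each, Lag3 in 16, Tgfb1 in 19, Ebi3 in 27 and Tnfrsf1b in 31. Ctla4, the inhibitory receptor, was in 7 of 9 Foxp3-listed cells and 32 of 47 others, with medians of 19 and 6 TPM.

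To set the whole lists against all genes, log2(mean TPM + 1) of the 9 Foxp3-listed cells was compared with that of the 47 others, and a difference of 1 or more, or -1 or less, was called. Of 7871 genes, 9.08% were called higher and 26.5% lower, and the median difference was -0.27. Of the 6 members, 3 were in 10 or more cells and 0 of these were called: Folr4 differed by 0.19 (-0.68 without T4_9), Ikzf4 by -0.66 and Nrp1 by -0.77. Of 15 surface and effector genes in 10 or more cells (17 of 22 were in the table), 2 were higher, Areg (1.14) and Ebi3 (1.02), and 3 lower, Tnfrsf1b (-2.97), Lag3 (-2.01) and Ctla4 (-1.69); the median was -0.12. Of 20 regulators (21 of 21 were in the table), 2 were higher, Nr4a3 (3.17) and Tgfbr2 (1.31), and 4 lower, Prdm1 (-2.98), Foxo1 (-1.34), Cbfb (-1.32) and Tgfbr1 (-1.26); the median was -0.21. Both lists together give 11.4% higher and 20% lower, near the share of all genes. With the mean of log2(TPM + 1) in place of the log of the mean, 8 of the 35 were higher and 1 lower, against 21.1% and 3.07% of all genes.

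Several of these differences rested on 1 cell or 1 set. Nr4a3, a factor induced by T cell receptor signals, was at 162 TPM in T2_6 and its difference was 0.27 without that cell. Ebi3, a subunit of interleukin-35, was at 932 TPM in T4_9 and its difference was 0.03 without it. For Tgfbr2, a TGF-beta receptor chain, T2_5 held 172 TPM, and the difference was -0.96 without set T2. Among the lower genes, Ctla4 was at -0.35 without set T5, which holds its highest cell, and the other TGF-beta receptor chain, Tgfbr1, was at -0.63 without T5_2. Tnfrsf1b, Lag3 and Prdm1 stayed below -1 with each set left out, but high cells among the 47 carried these differences. Their highest values there were 421 TPM (T5_6), 174 TPM (T1_4) and 563 TPM (T5_4), against 30, 8 and 19 TPM in Foxp3-listed cells. The medians were equal, 1 TPM for Tnfrsf1b and 0 for Lag3 and Prdm1, and Lag3 was in 3 of 9 and 13 of 47 cells and Prdm1 in 2 of 9 and 10 of 47. As background, Tnfrsf1b is a receptor for tumour necrosis factor, Lag3 an inhibitory receptor and Prdm1 the factor Blimp-1.

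**Figure D5:**
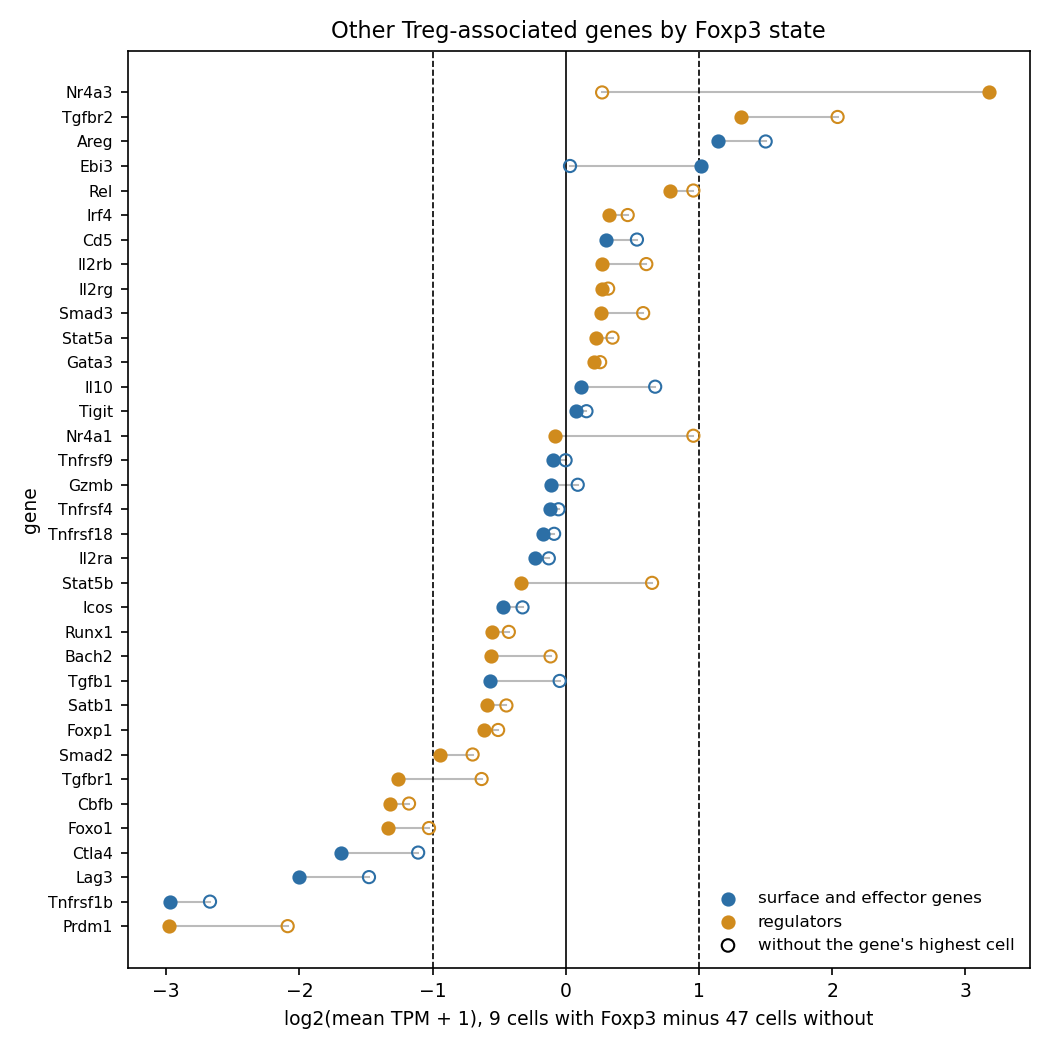
Difference in log2(mean TPM + 1) between the 9 cells with Foxp3 and the 47 without, for 35 other Treg-associated genes (surface and effector genes blue, regulators orange); filled points use all cells, open points leave out each gene's highest cell, and dashed lines mark -1 and 1. Nr4a3 and Ebi3, whose highest cells list Foxp3, move from above 1 to 0.27 and 0.03. The highest Areg cell, T5_7, is without Foxp3, so leaving it out can only raise the Areg difference, here from 1.14 to 1.50.

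Areg was the gene of these lists that was most often higher in Foxp3-listed cells, by pairs of cells. It encodes amphiregulin, an epidermal growth factor family ligand made by Th2 cells and by tissue Treg cells. It was in 9 of 9 Foxp3-listed cells, at 1052 TPM in T2_5, 605 in T2_6, 571 in T1_6, 368 in T4_6, 303 in T4_1, 296 in T4_9, 255 in T3_5, 136 in T2_10 and 111 in T5_10. In the 47 others it ran from 0 to 2078 TPM with a median of 9, and 14 of them were at 111 TPM or more, so the groups overlap. Over all pairs of 1 Foxp3-listed and 1 other cell, the first held more Areg in 84.0%, with tied pairs split equally between the groups. This was place 8 of 7871 genes, and Ccdc22 was first. Medians of the others by set were 97, 194, 9, 21 and 5 TPM in T1 to T5, and T2_10, at 136 TPM, lay below that of its set. Areg had a rho of 0.35 with genes listed, and in the 28 cells with most genes the medians were 296 and 51 TPM. Its log2 difference of 1.14 was 0.78 without set T2 and 0.96 without set T3. It was 1.50 without its highest cell, T5_7, which is among the 47 others, so leaving that cell out can only raise the difference. The difference has no replicate check, and since the 9 cells also list Ccdc22 it cannot be told apart from a difference by Ccdc22. By the same pairs, Nr4a1 was at 72.6% (place 194) and Il10 at 71.9% (place 234), while Satb1 was lowest of these lists at 40.0%. Il10 was in 9 of 9 and 43 of 47 cells, with medians of 1386 and 434 TPM, and Nr4a1 in 8 of 9 and 23 of 47. Their log2 differences in mean were 0.11 and -0.08. The highest cells are among the 47 others, T5_4 at 23652 TPM for Il10 and T4_7 at 2354 TPM for Nr4a1. Leaving these out can only raise the differences, here to 0.67 and 0.96.

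Few markers of other cell types could be followed, and some were listed more often in Foxp3-listed cells. These cells also listed more genes of any kind (median 5195 against 4696). Nkg7, a granule gene of CD8 T and NK cells, was in 6 of 9 Foxp3-listed cells and 18 of 47 others. By pairs of cells, with tied pairs split equally between the groups, the share for Foxp3-listed cells was 63.5%, at place 1315 of 7871 genes. Both groups had cells at 0, so many of these pairs were ties. The mean was lower in Foxp3-listed cells (226 against 249 TPM, a log2 difference of -0.14). The highest Nkg7 cell, T1_7 at 5592 TPM, is without Foxp3. Leaving it out can only raise the difference, here to 0.76. Of the B cell list 1 of 5 genes was analysed here, Cd74, in 6 of 9 and 26 of 47 cells, at 0 to 135 TPM (median 22) in Foxp3-listed cells and 0 to 672 (median 5) in the others. Of the myeloid list 1 of 5 was, Cd68, in 3 of 9 and 7 of 47 cells (0 to 34 and 0 to 481 TPM), and of the mast cell and basophil list 1 of 5, Cpa3, in 2 of 9 and 3 of 47 cells (0 to 7 and 0 to 160 TPM). The CD8 T and NK list had 2 of 4, Cd8b1 and Nkg7, with sums of 0 to 1155 TPM (median 38) and 0 to 5592 TPM (median 0); Cd8b1 was in T3_5 only, at 24 TPM. The part of these markers in the results on Foxp3-listed cells was not tested. The 8 Th2 markers summed to 1518 to 29044 TPM in Foxp3-listed cells and 144 to 25630 TPM in the others, and Gata3 had medians of 876 and 814 TPM.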

How the data were processed

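RNA of 56 single cells, captured on a Fluidigm C1 per the labels' protocols, entered; the sample of 10000 pooled cells was not used here. Each deposited value is treated as a score, since the authors rounded TPM to whole numbers (cell sums 999202 to 999914). The submitters' processing notes name mm9, FastQC, Bowtie 0.12.2 and Cufflinks, without their roles; neither the filter on genes nor the use of strand is given in the sources used here. Depth cannot be read from TPM.

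The 6 genes and the gene lists were chosen with earlier results of these data known. Values were read with pandas 2.3.3 and exact Clopper-Pearson 95% intervals came from scipy 1.17.1. Spearman rho was taken over all 56 cells and carries no p, since the cells are 1 sample. Comparisons across genes used genes at 1 TPM or more in at least 10 cells, a pseudocount of 1 TPM, and a called log2 difference of 1 or more, or -1 or less. Named were the 6 genes, genes of the fixed lists, and the 5 genes of highest rho for members in 20 or more cells. Ccdc22, Ppp1r3f, Trdmt1, Plekhh1 and Il2 were chosen after their values were seen. Scripts were tested on simulated data. Symbols and overlaps came from GENCODE M21 and RefSeq on GRCm38, a later build than mm9; 3 of the 6 genes had a promoter window. Alternatives changed the detection level, the filter, the pseudocount and the measure, and left out sets or cells; leaving out T3_5 and T1_6 together was added after seeing the data.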

Additional observations from a re-analysis of the deposited data

How the results depend on the processing

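The yardstick was the spread between the 5 sets, the exact interval of a share, or a fixed factor for counts of genes. Of 195 alternative values for 19 results, 180 stayed within it. Much of this yardstick is wide, so the count says little about stability. For example, the interval for the share with Nrp1 was 40.0 to 97.2%. The rho of Foxp3 with Nrp1 went from 0.10 to 0.33 without T2 and still stayed within its spread (SD over sets 0.38). Foxp3 was in 13.6 to 18.2% of cells and Folr4 in 86.4 to 91.7% with a set left out, and the Folr4 mean was 413 to 499 TPM. The share of Foxp3-listed cells with Ikzf2 was 0% at 5 TPM for both genes, at 5 TPM for Foxp3 only, without T3_5, and without T3_5 and T1_6; with a set left out it was 0 to 16.7%. With a set left out, the share with Folr4 was 83.3 to 100%, with Nrp1 66.7 to 100%. Of the listed Treg genes, 1 to 6 were higher and 3 to 10 lower with a set left out. Without T2, 1 of 33 was higher and 10 lower, against 10.2% and 26.9% of all genes. Without T5, 6 of 34 were higher and 3 lower, against 9.98% and 26.9%. Without T3, 2 of 35 were higher and 8 lower, against 9.87% and 26.5%. With genes in 20 or more cells 2 of 29 were higher, against 6.56% of all genes. With the mean of log2(TPM + 1) 8 of 35 were higher and 1 lower, against 21.1% and 3.07%. The rho of Foxp3 with Lrrc32 was -0.17 as a partial rho on genes listed. The excess variation of Ikzf4 was 0.61 without each gene's highest cell; with the filter of 20 cells it has no value. No paired analysis was possible because all cells form 1 group. The cause of these shifts was not tested. With 9 Foxp3-listed cells the intervals of the shares are wide and cover counting error only, and the difference in shares seen for Nrp1 was not tested. Without strand, reads in the bases that Foxp3 shares with Ccdc22 cannot be assigned to 1 of these genes.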

Other observations

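The cells with the highest Foxp3 values also held 2 cytokine extremes, picked out after the values were seen. T2_6, highest in Foxp3 at 40 TPM, held the highest Il4 of the 56 cells, at 26918 TPM, against 21171 in the next cell. T4_1, at 28 TPM of Foxp3, held the highest Il2, at 31888 TPM, against 20652 in the next. Il2 encodes the T cell growth factor that Treg cells depend on and that Foxp3 is known to repress.

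As a group the Foxp3-listed cells overlapped the others for both cytokines. Il2 was in 7 of 9 Foxp3-listed cells and 32 of 47 others, with medians of 49 and 2 TPM. Il4 was in 9 of 9 and 45 of 47, with medians of 1904 and 291 TPM. T2_5, also at 28 TPM of Foxp3, listed Il2 at 0 and held Il4 at 1904 TPM. The log2 difference in mean TPM was 1.66 for Il4 and 1.98 for Il2. Without T2_6 that of Il4 was 0.30, and without set T2 0.02. Without T4_1 that of Il2 was -0.57, without set T4 -0.10, and without set T2 3.73. The Il4 medians were 1353.5 and 291 TPM without T2_6, and 709 and 280.5 TPM without set T2. The Il2 medians were 25 and 2 TPM without T4_1. By pairs of cells, with tied pairs split equally between the groups, the share for Foxp3-listed cells was 74.0% for Il4 (place 138 of 7871 genes). For Il2, which was at 0 in cells of both groups, it was 58.4% (place 2661).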
